A study of Homo sapiens with 6 samples.

Results

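The genes described here encode the secreted and membrane-bound zinc proteases of the matrix metalloproteinase (MMP), ADAM and ADAMTS families together with TIMP1 to TIMP4, their tissue inhibitors. They were chosen by symbol, from probe sets annotated to exactly 1 gene, and each gene was read as the mean of its probe sets. This gave 64 of the 19775 genes on the arrays, namely 22 MMP, 20 ADAM, 18 ADAMTS and 4 TIMP genes with 145 probe sets in all. The samples were cultures of HT29, an established human cell line from a colorectal adenocarcinoma, kept in F12 medium with 7% serum. On the day after 300000 cells had been plated, 3 cultures received a polyphenolic cocoa extract (500 µg, volume not given) and 3 served as controls, which are titled untreated but received saline per the protocol. RNA was taken at 24 h and read on 1 oligonucleotide array per culture. The question was which of these transcripts differed between the 3 cocoa and the 3 control arrays. In the deposited log2 table every probe set had been shifted to a median of 0 over the 6 arrays, so a value compares arrays for 1 gene and never gives its level. The labels do not say whether cultures of one group were independent experiments, and the p-values then cover only the spread among these 6 arrays, which may be technical.

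MMPs are made as inactive precursors, and a cysteine of their propeptide must leave the zinc of the active site before they can cut collagen, laminin, proteoglycans or other proteases. ADAMs sit in the membrane and release the outer parts of neighbouring membrane proteins such as growth factor precursors, cytokine receptors and Notch, while ADAMTS enzymes are secreted and bind to the matrix. TIMPs occupy the active site of these proteases, and TIMP2 also takes part in the activation of pro-MMP2 by MMP14 on the cell surface. In the intestine MMP7 is known as a product of epithelial cells, including those of colorectal tumours, whereas many other MMPs come mainly from stromal cells and leukocytes.

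Across all genes, 13.5% passed a Benjamini-Hochberg adjusted p of 0.05 in limma, 7.36% higher and 6.12% lower with cocoa, and the median log2 difference was −0.012. The ranges of the 2 groups were disjoint in 32.5% of genes. The signal of the 18S ribosomal RNA control probe sets was −1.12 to 0.51 in controls and −0.51, 3.31 and 1.40 in cocoa arrays 1, 2 and 3. The 5′ minus 3′ signal of the actin and GAPDH control probe sets, a sign of RNA integrity and labelling, was 0.009 to 0.033 in controls and 0.032, −0.26 and −0.052 in the same cocoa arrays. Cocoa array 2 thus stood apart in both, and fits were also made with either signal as a covariate. Of 12 markers of colon epithelium, GPA33 was called higher (0.24 on the log2 scale, SE 0.068, adjusted p = 0.0481) and the other 11 were not called. With each array left out in turn GPA33 passed 1 time of 6 (adjusted p from 0.045 to 0.146), and its call was lost with the 18S covariate (0.204), the 5′ to 3′ covariate (0.17) and the replicate block (0.0856). Without levels, the presence of the markers could not be checked.

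Among the protease and inhibitor genes 5 of 64 passed the test, a share of 7.81% against 13.5% of all genes. MMP7 and ADAM19 were lower with cocoa, and ADAM8, TIMP2 and TIMP4 were higher. The other 59 genes did not pass. The log2 difference lay within 0.2 of 0 for 57 of the 64 genes (89.1%), as it did for 75.9% of all genes, and the median over the 64 was −0.002. The ranges of the groups were disjoint in 11 of the 64 genes (17.2%, against 32.5% of all genes). At the level of single probe sets, 9 of 145 passed (7 higher and 2 lower), against 7.98% of all probe sets. Folds are antilogs of the log2 difference, and SE is limma's moderated standard error.

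**Figure D1:**
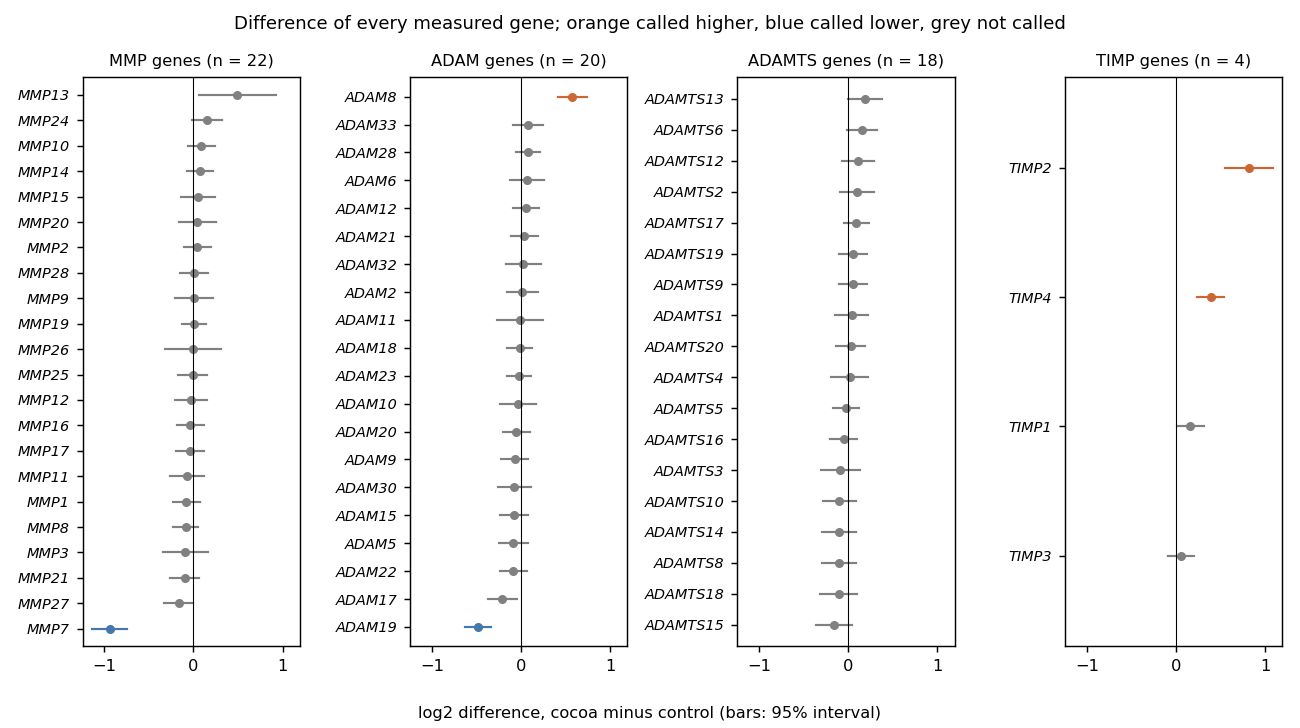
Log2 difference, cocoa minus control, of each of the 64 genes (x axis, log2 units; points are differences of the means of 3 arrays per group, bars are 95% intervals from limma), in 1 panel per family. MMP7 at −0.94 and ADAM19 at −0.48 are the blue genes called lower, ADAM8 at 0.58, TIMP2 at 0.82 and TIMP4 at 0.39 the orange genes called higher, and the ADAMTS genes all lie between −0.16 and 0.19.

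MMP7, or matrilysin, is among the smallest MMPs and lacks the hemopexin domain of most relatives. It had the largest log2 difference of the 64 genes in either direction when probe sets were averaged per gene. As single probe sets, 209765_at of ADAM19 (−1.02) and 231579_s_at of TIMP2 (0.99) differed more. The centred log2 values of MMP7 were 0.68, 0.40 and 0.44 in control arrays 1 to 3 and −0.40, −0.51 and −0.40 in cocoa arrays 1 to 3. The control values were all above the cocoa values, and the spread within either group was small beside the gap between them (mean 0.50 ± 0.15 in controls and −0.44 ± 0.066 with cocoa, SD, n = 3). MMP7 fell by 0.94 on the log2 scale (SE 0.086, limma adjusted p = 0.000243), which is 1.92-fold lower with cocoa. The adjusted p stayed between 0.00082 and 0.00158 in the 6 fits without 1 array. The gene rests on 1 probe set, 204259_at, so there is no second reading of it. In bulk RNA such as this, fewer cells that express a gene and less RNA per cell cannot be told apart. The other matrilysin, MMP26, had a log2 difference of −0.006 (95% interval −0.32 to 0.31), with 1 control array (0.38) and 1 cocoa array (0.29) well above the rest.

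**Figure D2:**
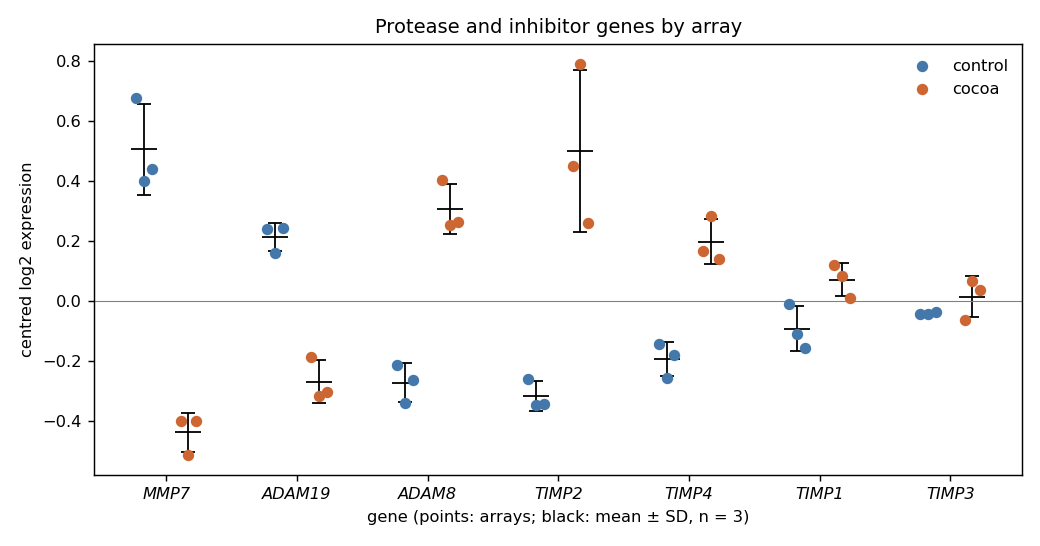
Centred log2 expression (y axis) of the 5 called genes and of TIMP1 and TIMP3 in the 3 control (blue) and 3 cocoa (orange) arrays; points are arrays and black bars the mean ± SD. The groups do not overlap for the 5 called genes and TIMP1, TIMP3 values of both groups lie near 0, and the cocoa arrays of TIMP2 spread from 0.26 to 0.79.

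MMP7 lies at one end of a cluster of 9 MMP genes on chromosome 11, followed in genomic order by MMP20, MMP27, MMP8, MMP10, MMP1, MMP3, MMP12 and MMP13. The order was taken from the RefSeq annotation of GRCh38.p14. MMP7 was the 1 gene of the 9 that was called, beside 13.5% of all genes. With so few genes the count was not read as a result about the cluster. The differences of the 8 neighbours ran from −0.17 for MMP27 to 0.49 for MMP13, 3 above and 5 below 0. The difference between MMP7 and its neighbours was not tested. MMP20, the tooth enamel protease enamelysin and the nearest of them, had a difference of 0.045 (95% interval −0.16 to 0.25).

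**Figure D3:**
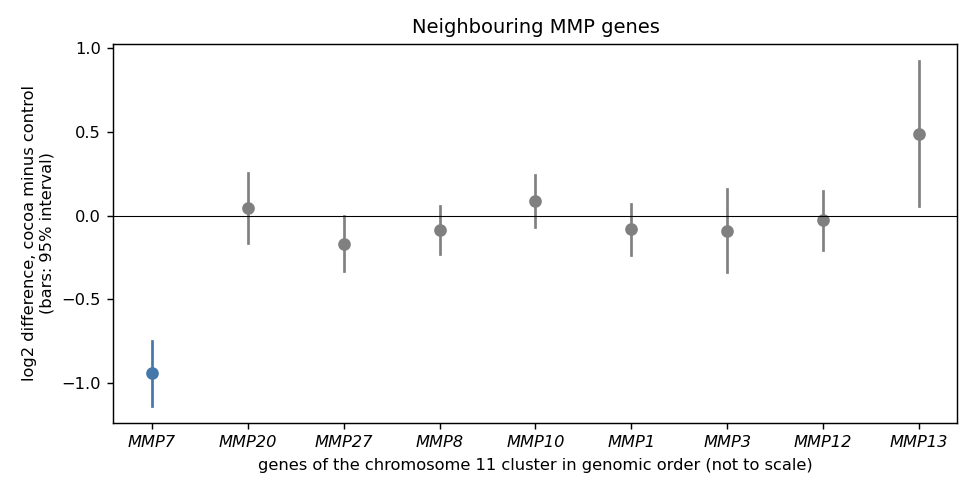
Log2 difference, cocoa minus control (y axis, points; bars are 95% intervals from limma, 3 arrays per group), of the 9 genes of the chromosome 11 cluster in genomic order, with spacing not to scale. MMP7 at −0.94 is the gene called, and the wide interval of MMP13 (0.057 to 0.92) goes with its single high cocoa array.

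The 250 bases upstream of the annotated start of MMP7 are shown beside those of its cluster neighbours MMP10 and MMP20. These 3 share a match to the binding motif of AP-1, the dimers of FOS and JUN proteins, and a match to the TATA box letters, while MMP7 alone of the 3 was called. Positions are counted from the annotated start, and whether the letters act as a TATA box was not tested. The sequences are from RefSeq on GRCh38.p14, minus strand, at chr11:102530748-102530997 for MMP7, chr11:102780629-102780878 for MMP10 and chr11:102625333-102625582 for MMP20. Capitals mark matches on either strand to the motifs searched, which were AP-1 (TGANTCA), PEA3 of the ETS family (AGGAAG), TCF (CTTTGA), the TATA box (TATAAA), the GC box (GGGCGG) and an interferon response element (ISRE, which is GAAA and GAAA parted by a pair of any bases).
MMP7: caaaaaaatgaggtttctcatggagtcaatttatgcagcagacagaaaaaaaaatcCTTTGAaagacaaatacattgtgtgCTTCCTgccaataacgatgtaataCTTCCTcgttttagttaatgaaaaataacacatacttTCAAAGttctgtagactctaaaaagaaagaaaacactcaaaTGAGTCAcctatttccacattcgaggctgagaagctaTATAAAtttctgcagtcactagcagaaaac
MMP10: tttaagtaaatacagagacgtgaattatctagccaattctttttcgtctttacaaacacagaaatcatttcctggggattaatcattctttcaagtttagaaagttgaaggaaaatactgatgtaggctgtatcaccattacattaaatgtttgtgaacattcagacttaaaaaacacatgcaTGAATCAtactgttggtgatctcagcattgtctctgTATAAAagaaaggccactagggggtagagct
MMP20: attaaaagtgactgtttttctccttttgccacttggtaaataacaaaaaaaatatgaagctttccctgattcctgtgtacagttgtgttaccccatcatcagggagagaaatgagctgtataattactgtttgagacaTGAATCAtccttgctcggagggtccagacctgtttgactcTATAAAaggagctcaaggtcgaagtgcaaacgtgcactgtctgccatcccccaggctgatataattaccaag
The AP-1 match lies 67 to 61 bases before the start in both MMP7 (TGAGTCA) and MMP10 (TGAATCA), and 112 to 106 bases before it in MMP20. The TATAAA match begins 30 bases before the start in MMP7, 31 in MMP10 and 72 in MMP20. MMP7 further holds 2 PEA3 matches, at 169 to 164 and 145 to 140 bases, and 2 TCF matches, at 194 to 189 and 108 to 103 bases, of which MMP10 and MMP20 have none in this window. No match overlaps another. Over all 35116 upstream windows of this length 6.57% hold the AP-1 letters, 28.7% PEA3, 11.2% TCF, 10.7% TATAAA, 42.6% the GC box and 3.02% the interferon element. Upstream windows were found for 36 of the 64 genes (37 windows), of which 4 held the AP-1 letters, 9 PEA3, 3 TCF, 7 TATAAA, 24 the GC box and 0 the interferon element. In the cluster, MMP8 and MMP27 had a window without the AP-1 letters. MMP1, MMP3, MMP12 and MMP13 had no window, so their motifs were not searched. A match is a description of letters and does not show binding.

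The other MMP genes did not pass. Among the collagenases, which cut fibrillar collagen, MMP13 had the largest difference. Its values were −0.20, −0.02 and −0.32 in the controls and 0.02, 0.08 and 0.84 with cocoa. Cocoa array 3 was far above the other arrays, and the groups were separated by the small gap between control array 2 and cocoa array 1. The difference of 0.49 (SE 0.19, adjusted p = 0.133) dropped to 0.23 without cocoa array 3 (adjusted p = 0.203). MMP1 and MMP8 had differences of −0.083 and −0.088.

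The gelatinases MMP2 and MMP9, which cut denatured collagen and the collagen of basement membranes, had differences of 0.045 (95% interval −0.10 to 0.19) and 0.003 (−0.21 to 0.22). The stromelysins MMP3, MMP10 and MMP11, with broad matrix substrates, had −0.090, 0.089 and −0.072. The 6 membrane-type MMPs, which are anchored at the cell surface, ran from −0.042 for MMP17 to 0.15 for MMP24. MMP14, the main activator of pro-MMP2, was at 0.078 (95% interval −0.069 to 0.22), and its 4 probe sets all had differences between 0.031 and 0.17. In the remaining 6 MMP genes the differences were between −0.17 (MMP27) and 0.045 (MMP20). A difference as large as that of MMP7 lay outside the intervals of the gelatinases and of MMP14. Without levels, however, genes near background cannot be told from genes that did not differ.

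ADAM8, a protease of leukocytes and of some tumour cells, was the ADAM gene that rose. Its values were −0.21, −0.34 and −0.26 in the controls and 0.40, 0.25 and 0.26 with cocoa. The 3 cocoa arrays lay above the 3 controls with little spread in either group. ADAM8 rose by 0.58 on the log2 scale (SE 0.071, adjusted p = 0.00116), or 1.49-fold, and its adjusted p was at most 0.00905 in the fits without 1 array. Its 2 probe sets gave 0.42 (adjusted p over probe sets 0.0269) and 0.74 (0.00265). Both carry the suffix _s_at, which marks a possible match to several transcripts, so ADAM8 goes unmeasured when such probe sets are dropped.

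ADAM19, an ADAM known from heart and nerve development that can shed neuregulin, fell. Its values were 0.24, 0.16 and 0.24 in the controls and −0.19, −0.32 and −0.30 with cocoa, again without overlap. The difference was −0.48 (SE 0.067, adjusted p = 0.00205), or 1.40-fold lower with cocoa, with an adjusted p of at most 0.0119 without 1 array. This mean joins 2 probe sets that disagreed. Probe set 209765_at read −1.02 (SE 0.11, adjusted p over probe sets 0.0017), with controls from 0.36 to 0.50 and cocoa arrays from −0.78 to −0.36. Probe set 221128_at read 0.06 (SE 0.082, adjusted p 0.753), with overlapping groups. The call of ADAM19 therefore rests on the first, and the mean understates what that probe set reads.

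**Figure D4:**
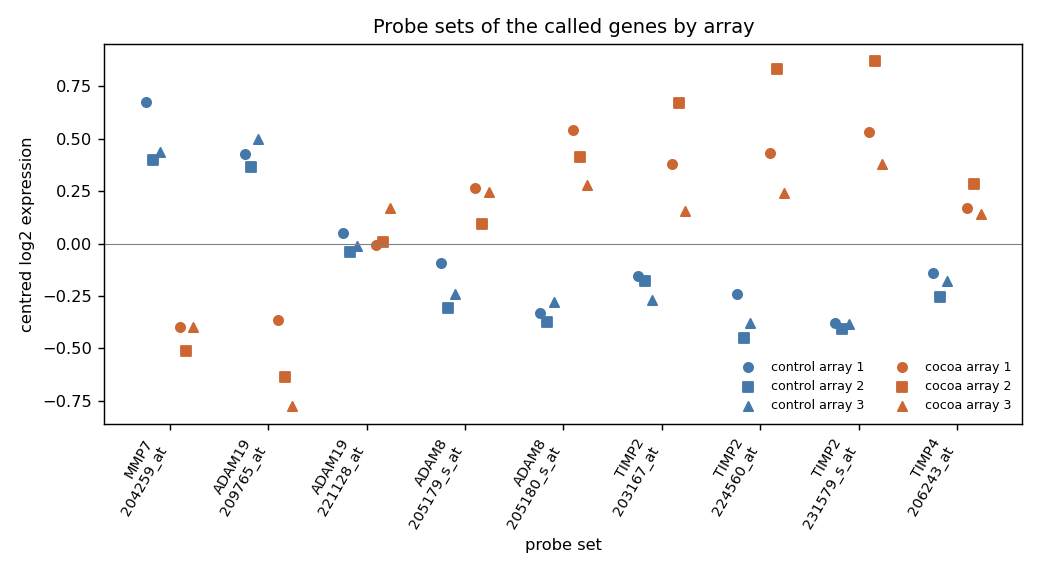
Centred log2 expression (y axis) of each probe set of MMP7, ADAM19, ADAM8, TIMP2 and TIMP4 in the 3 control (blue) and 3 cocoa (orange) arrays, with the array number given by the marker shape. The 3 TIMP2 probe sets and both ADAM8 probe sets separate the groups in the same direction, whereas 1 of the 2 ADAM19 probe sets does not separate them.

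The upstream windows of ADAM8 and ADAM19, which moved in opposite directions, are shown for contrast with the AT-rich MMP7 window, as is that of TIMP4, which is described with the inhibitors. They lie at chr10:133276869-133277118 (ADAM8), chr5:157575776-157576025 (ADAM19) and chr3:12158913-12159162 (TIMP4), each on the minus strand of GRCh38.p14 from RefSeq, with the same motifs in capitals. TIMP2 had no match in the table.
ADAM8: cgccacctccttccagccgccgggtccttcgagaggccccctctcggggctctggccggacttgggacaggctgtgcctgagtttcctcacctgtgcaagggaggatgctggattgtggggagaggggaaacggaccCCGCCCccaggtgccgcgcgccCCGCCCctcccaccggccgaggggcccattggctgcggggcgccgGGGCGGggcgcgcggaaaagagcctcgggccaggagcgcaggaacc
ADAM19: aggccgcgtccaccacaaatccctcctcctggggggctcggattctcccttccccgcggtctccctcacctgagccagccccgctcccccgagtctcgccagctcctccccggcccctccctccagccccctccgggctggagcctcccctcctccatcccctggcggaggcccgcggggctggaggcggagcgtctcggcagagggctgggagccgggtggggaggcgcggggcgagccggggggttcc
TIMP4: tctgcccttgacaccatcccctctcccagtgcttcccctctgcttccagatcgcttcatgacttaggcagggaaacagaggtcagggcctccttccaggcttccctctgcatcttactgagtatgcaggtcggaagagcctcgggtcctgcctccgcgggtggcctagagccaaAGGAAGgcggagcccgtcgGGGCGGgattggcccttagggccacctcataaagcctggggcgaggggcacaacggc
G and C make up 73.6% of the ADAM8 window, 76.4% of the ADAM19 window and 62.8% of the TIMP4 window, against 33.6% in MMP7. The windows of MMP10 (34.4%) and MMP20 (41.6%), which were not called, are also low in G and C. ADAM8 holds 3 GC box matches, TIMP4 has 1 GC box and 1 PEA3 match, and ADAM19 has none of the 6 motifs. None of the 3 holds the AP-1 or the interferon letters in these 250 bases.

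The main sheddases did not pass. ADAM17, which releases tumour necrosis factor and ligands of the EGF receptor, had the lowest adjusted p of the 59 genes not called. Its values were 0.07, 0.11 and 0.07 in the controls and −0.05, −0.25 and −0.07 with cocoa, without overlap and with cocoa array 2 lowest. The difference of −0.21 (SE 0.073, adjusted p = 0.0961) was −0.14 without cocoa array 2 (adjusted p = 0.229). ADAM10, which cleaves Notch and E-cadherin, had −0.031 (95% interval −0.23 to 0.17). ADAM9 had −0.070 (−0.22 to 0.078), ADAM15, an ADAM of epithelium and endothelium with an integrin-binding motif, −0.078 (−0.23 to 0.075), and ADAM12, known from muscle and placenta, 0.059 (−0.090 to 0.21).

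Probe sets of a single sheddase gene disagreed in cocoa array 2. In that array ADAM9 read −0.67 by probe set 1555326_a_at but 0.19 by 202381_at. ADAM17 read −0.65 by 205746_s_at, −0.079 by 213532_at and −0.036 by 205745_x_at, and ADAM10 read −0.42 by 202604_x_at but 0.078 by 202603_at. The low readings were deeper in cocoa array 2 than in cocoa arrays 1 and 3, and cocoa array 2 was also the array with the highest 18S signal (3.31) and the lowest 5′ minus 3′ signal (−0.26). The part of these signals in the readings was not tested beyond the covariate fits, in which ADAM17 had −0.14 with the 18S signal and −0.12 with the 5′ to 3′ signal. ADAM28, a protease of lymphocytes and some carcinomas that was picked out after its values were seen, had a gene mean of 0.081 from 4 probe sets that went apart. Probe set 205997_at was called higher (0.48, SE 0.11, adjusted p over probe sets 0.0348), with controls from −0.37 to −0.13 and cocoa arrays from 0.13 to 0.47, while the other 3 read −0.17, −0.091 and 0.10 and were not called.

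**Figure D5:**
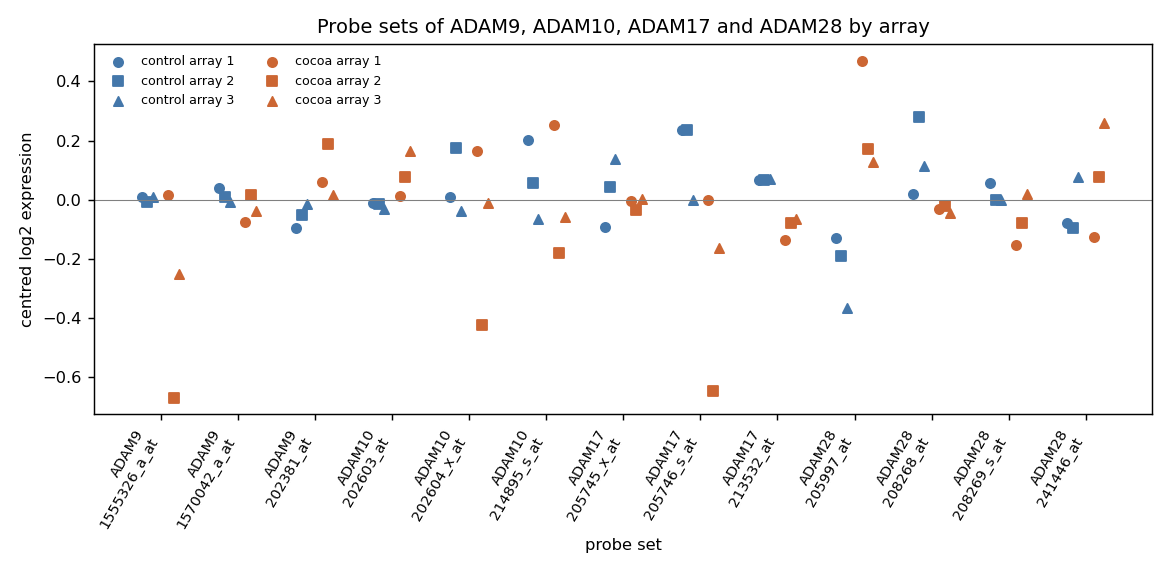
Centred log2 expression (y axis) of each probe set of ADAM9, ADAM10, ADAM17 and ADAM28 in the 3 control (blue) and 3 cocoa (orange) arrays, with the array number given by the marker shape. Single probe sets of ADAM9, ADAM10 and ADAM17 drop to between −0.67 and −0.42 in cocoa array 2 while the others of these genes lie between −0.18 and 0.19 there, and 1 of 4 ADAM28 probe sets separates the groups upward.

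Of 12 ADAM genes with a catalytic site, ADAM8 and ADAM19 were thus called and 10 were not. This share of 16.7% is near the 13.5% of all genes, and no result about the catalytic site was read from it. The 6 ADAM genes without one, among them the sperm protein gene ADAM2 and the neuronal genes ADAM11, ADAM22 and ADAM23, had differences between −0.086 and 0.026. The pseudogenes ADAM5 and ADAM6 had −0.086 and 0.067. In these 8 genes the groups overlapped, whereas they were disjoint in 32.5% of all genes, and 8 genes are too few to read more from this.

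None of the 18 ADAMTS genes was called at the adjusted p of 0.05 in limma, against 13.5% of all genes, and none at an unadjusted p under 0.05. Their differences ran from −0.16 (ADAMTS15) to 0.19 (ADAMTS13), and single arrays from −0.28 to 0.19. The enzymes that cut aggrecan and other proteoglycans gave 0.035 for ADAMTS1, 0.013 for ADAMTS4 and −0.028 for ADAMTS5, with 95% intervals within −0.20 to 0.22 for these 3. The procollagen processing enzymes ADAMTS2, ADAMTS3 and ADAMTS14 lay between −0.10 and 0.099. ADAMTS13, which trims von Willebrand factor, read 0.03, −0.13 and −0.22 in the controls and 0.13, 0.15 and −0.04 with cocoa, so that the groups overlapped (adjusted p = 0.194).

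The inhibitor genes were called higher in 2 of 4 cases, against 7.36% of all genes, and the differences of all 4 were above 0. With only 4 genes no rise of the family was read from this, and TIMP1 and TIMP3 were not called. TIMP2 read −0.26, −0.35 and −0.34 in the controls and 0.45, 0.79 and 0.26 with cocoa. The cocoa arrays were all higher but uneven, with cocoa array 2 the highest and cocoa array 3 the lowest of the 3 (mean 0.50 ± 0.27 with cocoa and −0.32 ± 0.050 in controls, SD, n = 3). TIMP2 rose by 0.82 on the log2 scale (SE 0.12, adjusted p = 0.00267), or 1.76-fold. Its 3 probe sets gave 0.60, 0.86 and 0.99 and each was called over probe sets (adjusted p 0.0237, 0.0102 and 0.00291). Without cocoa array 2 the difference was 0.67 (adjusted p = 0.00316), and with the 18S signal as a covariate it was 0.70 (adjusted p = 0.0267).

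TIMP4, known from heart and vessels, read −0.14, −0.25 and −0.18 in the controls and 0.17, 0.28 and 0.14 with cocoa, without overlap and with the smallest spread of the 3 genes called higher in the cocoa group. It rose by 0.39 (SE 0.069, adjusted p = 0.00643), or 1.31-fold, by 1 probe set. The adjusted p was 0.0124 to 0.04 in the fits without 1 array and came close to the threshold with the 18S signal as a covariate (0.04998). TIMP1, the inhibitor most often induced with MMPs, read −0.01, −0.11 and −0.16 in the controls and 0.12, 0.08 and 0.01 with cocoa. The groups were apart by a narrow margin, and the difference of 0.16 (95% interval 0.009 to 0.32) did not pass (adjusted p = 0.161). TIMP3, which is bound to the matrix and also inhibits ADAM17, had 0.056 (95% interval −0.089 to 0.20) over 4 probe sets. TIMP1, TIMP3 and TIMP4 lie within the synapsin genes SYN1, SYN3 and SYN2, and these hosts had differences of 0.039, 0.001 and −0.079, none of them called.

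Genes that work with these proteases were read from 6 lists with 123 measured genes. Of the 123, 4 were higher and 6 lower (8.13%, against 13.5% of all genes). Among 20 activators and surface partners, PCSK5 and TSPAN33 were called and the other 18 were not (median of the list 0.031). PCSK5, a proprotein convertase that cleaves precursors at basic residues, read 0.34, 0.52 and 0.62 in the controls and −0.37, −0.40 and −0.70 with cocoa. It fell by 0.99 (SE 0.11, adjusted p = 0.000585), and its 3 probe sets ran from −1.31 to −0.66, each called. TSPAN33, a tetraspanin that escorts ADAM10, rose by 0.48 (SE 0.088, adjusted p = 0.00789), with controls from −0.42 to −0.11 and cocoa arrays from 0.11 to 0.25, and its adjusted p was 0.0567 with the 18S covariate. No gene of the 12 other protease inhibitors measured, RECK and A2M among them, was called in limma (median −0.014), though 4 had an unadjusted p under 0.05.

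Of 32 measured membrane proteins that ADAMs can shed, 2 were higher and 2 lower (12.5%, near the 13.5% of all genes, with a median of −0.035). BTC, the EGF receptor ligand betacellulin, read −0.43, −0.61 and −0.41 in the controls and 0.50, 0.38 and 0.40 with cocoa. It rose by 0.91 (SE 0.077, adjusted p = 0.000152), and both of its probe sets were called (0.57 and 1.25). JAG1, a Notch ligand, fell by 0.42 (SE 0.065, adjusted p = 0.00349), with 3 of its 6 probe sets called and 229924_s_at at −0.003. All 6 carry the suffix _s_at or _x_at, so JAG1 goes unmeasured when such probe sets are dropped. APP, the amyloid precursor, rose by 0.44 (SE 0.10, adjusted p = 0.0213), and ALCAM, an adhesion molecule, fell by 0.30 (SE 0.079, adjusted p = 0.0334). Over probe sets, APP was called by 200602_at (0.46) but not by 211277_x_at (0.28) or 214953_s_at (0.58). ALCAM was called by 201952_at (−0.59) but not by 201951_at (−0.21) or 1569362_at (−0.12). The calls of APP and ALCAM did not hold with either covariate, and that of APP was lost without control array 2 (adjusted p = 0.0599) or cocoa array 2 (0.0678). ALCAM was called in 1 of the 6 fits without 1 array, that without cocoa array 1, and its adjusted p was up to 0.12 (without control array 1).

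Among 25 measured matrix substrates COL18A1, whose product holds the endostatin fragment, rose by 0.72 (SE 0.16, adjusted p = 0.018) and COL4A2, a basement membrane collagen, fell by 0.39 (SE 0.096, adjusted p = 0.0268), and 23 were not called (median −0.040). The share called in this list was 8.0%, against 13.5% of all genes. The cocoa values of COL18A1 were uneven at 0.59, 0.86 and 0.11. Its probe sets all carry the suffix _s_at, so COL18A1 goes unmeasured when such probe sets are dropped. Over probe sets, COL18A1 was called by 209082_s_at (0.83) but not by 209081_s_at (0.61). COL4A2 was called by 211966_at (−0.52) but not by 211964_at (−0.26). The calls of COL18A1 and COL4A2 were both lost with either covariate. That of COL18A1 was lost without control array 1 (adjusted p = 0.069) or control array 2 (0.0563), and COL4A2 was called only without cocoa array 1 or control array 3 among the 6 fits without 1 array (up to 0.0863). Of 20 measured regulators of protease promoters FOSL1 and ETS1 were lower and 18 were not called (median −0.020). FOSL1, the AP-1 subunit FRA-1, read 0.46, 0.45 and 0.47 in the controls and −0.56, −0.45 and −0.78 with cocoa (difference −1.06, SE 0.086, adjusted p = 0.000124). ETS1, an ETS factor of invasive cells, read 0.20, 0.27 and 0.32 in the controls and −0.24, −0.29 and −0.36 with cocoa (−0.56, SE 0.067, adjusted p = 0.000982). ETS1 is a mean of 3 probe sets of which 1 was called over probe sets. In both genes the groups were far apart, and both calls were kept in the 6 fits without 1 array and with either covariate. None of 14 related metalloproteases and ADAMTS-like genes was called in limma (median 0.002), and 1 had an unadjusted p under 0.05.

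Markers of cell types that are rich in these proteases were read beside them. None of 9 fibroblast and none of 5 endothelial markers was called in limma, 0 of them had an unadjusted p under 0.05, and the list means of fibroblast markers were −0.005 to 0.078 in controls and −0.043 to 0.012 with cocoa. Of 7 measured leukocyte markers CD14, a coreceptor for lipopolysaccharide, was called, at 0.75 (SE 0.11, adjusted p = 0.00321), and 6 were not. The differences of these 6 ran from −0.038 to 0.076, and the median of the 7 was 0.010. The mean of the 7, which includes CD14, was −0.10 to −0.033 in controls and 0.044 to 0.057 with cocoa. All samples were cultures of the HT29 line, so the lists were read as genes and not as shares of other cell types. Any link of CD14 to the values of ADAM8 and the TIMP genes was not tested.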

How the data were processed

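Total RNA of 6 HT29 cultures was read on Affymetrix Human Genome U133 Plus 2.0 arrays. The deposited table holds log2 values of 54675 probe sets that the authors made with RMA, per the submitters' processing notes, whose version is not stated there. The series text names GeneSpring GX. Its probe set medians are 0, so the authors centred it, and detection is unknown. The base of the logarithm is that of RMA, since the table names none.

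Without 62 control probe sets, 41091 of 54613 probe sets carried 1 symbol and gave 19775 genes. All 64 members matched RefSeq by gene identifier. Cocoa was compared with control by limma 3.58.1 (lmFit, eBayes; R 4.3.3) on all genes, with Benjamini-Hochberg adjustment at 0.05. The fit was tested on simulated data with the residual spread of each gene. It recovered 27 of 50 changes of 0.5 on the log2 scale and 46 of 50 changes of 1. Over all sizes simulated, 14 of 187 calls were false. The data gave far more calls (2666), and the Benjamini-Hochberg cutoff depends on their number. The simulated recovery was therefore not carried over to the data. Among members not called, the interval ends from limma ran from −0.37 (ADAM17) to 0.92 (MMP13), and the next highest was 0.38 (ADAMTS13). Genes not called may still differ within their intervals. Gene values of 2 control arrays differed with an SD of 0.14 to 0.161 and those of 2 cocoa arrays with 0.174 to 0.198, so no array was a copy. The number of arrays limits the precision. Alternatives were a replicate block, a robust prior, array weights, quantile normalisation, median centring, probe set choices, control-signal covariates, a threshold of 0.01 and leaving out each array.

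Members and lists were chosen with earlier results of these data known. Genes were named if called, if among 23 well known members, if groups did not overlap at a difference of at least 0.3, or if among the 6 largest calls of a companion list; ADAM28, the cluster neighbours, GPA33 and CD14 were added after their values were seen. Other members are named only as ends of ranges or as examples of their group. Tables were built in pandas 2.3.3 and numpy 2.4.6 (Python 3.11.15) and plots in matplotlib 3.10.9.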

Additional observations from a re-analysis of the deposited data

How the results depend on the processing

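The 5 members called stayed called, in the same direction, in each alternative that measures them, which leaves out ADAM8 where _s_at and _x_at probe sets are dropped (4 called). Read by probe set, 6 members had a called probe set, the sixth being ADAM28, and the second probe set of ADAM19 had the opposite sign (0.0595). The calls among all genes, 2666 in number, fell to 1103 with the 18S covariate, to 1411 with the 5′ to 3′ covariate and to 1152 at a threshold of 0.01, and ran from 1315 (without control array 2) to 2881 (without cocoa array 1) in the fits without 1 array, with 1623 without control array 1. The 10 companion genes called became 5 with the 18S covariate, 18 with array weights, 6 at a threshold of 0.01 and 19 by probe set, and 6 (without control array 2) to 14 (without cocoa array 1) in the fits without 1 array. The cause was not tested, except that a threshold of 0.01 calls fewer genes by construction. With the replicate number as a block 5 members, 12 companion genes and 1947 genes were called; same-numbered arrays deviated with correlations of −0.12, −0.009 and −0.003, no array correlated best with its own number, and the numbers were not taken as pairs. Of 574 alternative values of the 34 genes named by the rule, 34 lost their call with the sign kept, each of a companion gene, 1 lost it with the opposite sign, which is the ADAM19 probe set above, and 29 changed sign for genes called in neither setting. Without levels, a filter on dim probe sets could not be made, and genes near background cannot be told from genes that did not differ.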

Other observations

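Probe sets annotated to several genes stayed out of the comparison. Probe set 207118_s_at, shared by MMP23A and MMP23B, read 0.35, 0.04 and −0.04 in the control arrays and −0.05, −0.06 and 0.10 with cocoa, a log2 difference of −0.12 (SE 0.11, limma adjusted p over probe sets 0.633). Probe set 221337_s_at, shared by ADAM29 and a second locus, read −0.01, −0.03 and 0.01 in the controls and −0.11, 0.12 and 0.15 with cocoa, a difference of 0.059 (SE 0.09, adjusted p 0.78). In both the groups overlapped.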
